A study of Mus musculus with 12 samples.

Results

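The chemoattractant receptors described here are 9 genes of J774A.1 macrophages, chosen by symbol from the gene tables: Ccr1, Ccr2, Cx3cr1, Cxcr4, Ccrl2, C3ar1, C5ar1, Fpr1 and Fpr2. All 9 were counted in both tables, among 17544 genes listed for unstimulated cells and 17874 listed after LPS. J774A.1 is a mouse macrophage line. The wild-type (WT) lines had received a Cas9 vector without a guide RNA, and the ACAT1 knockout (ACAT1 KO) lines the same vector with a guide to the fourth exon of Acat1, which encodes a mitochondrial enzyme of fatty acid, ketone body and isoleucine breakdown. Both were sorted for GFP and expanded as clonal populations, so each line is an outgrowth of few cells and differences between clones are part of every comparison of genotypes. RNA from 3 WT and 3 ACAT1 KO libraries was sequenced without treatment and from 3 and 3 after 2 hours with 100 ng/ml lipopolysaccharide (LPS), the bacterial ligand of Toll-like receptor 4, which gives 12 libraries in 4 groups.

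Chemoattractant receptors are membrane proteins that let leukocytes sense gradients of chemokines, complement fragments and bacterial or host peptides. Most couple to inhibitory G proteins, whose beta-gamma subunits activate phosphoinositide 3-kinase gamma and phospholipase C beta, and receptor kinases, arrestins and RGS proteins then end the signal. Macrophages are known to change the set of these receptors when a Toll-like receptor is engaged, which alters the cues they can follow.

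Acat1 itself, the check of the labels, was lower in ACAT1 KO than in WT libraries in both states, 26.8 ± 1.82 against 98.8 ± 15.6 CPM (counts scaled to library size; SD, n = 3 each) without treatment and 19.1 ± 0.732 against 81.9 ± 15.5 CPM after LPS, with no overlap of the groups in either state. CPM values are on a scale common to the 12 libraries, whose totals ranged from 56948593 to 167280149 counts. The unstimulated libraries WT 1, WT 2 and ACAT1 KO 2 stood apart, with the lowest totals and with 0.0136% to 0.0209% of counts on noncoding genes antisense to exons, whereas no other library exceeded 0.00334%. They are called a library set below. Values within it and outside it are given for the unstimulated differences of Ccr1, Ccrl2, Cx3cr1, Cxcr4, Fpr1 and Fpr2, and not for the other unstimulated results. In these values ACAT1 KO 2 alone stands for ACAT1 KO within the set, and WT 3 alone stands for WT outside it. All 11 macrophage markers, among them Csf1r, Lyz2 and Cd68, were counted in every library, and their summed level ranged from 9670 to 12500 CPM. Of 13 neutrophil or mast cell markers 3 were listed in both tables, Mmp8, Cebpe and S100a8, with sums from 34.7 to 43.5 CPM, and of 11 lymphoid or dendritic markers 3 were, with sums from 3.45 to 5.79 CPM. In bulk RNA, fewer cells with a transcript and less transcript per cell cannot be told apart.

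Of the 9 genes, 4 lie on chromosome 9 of GRCm38, where Ccr1 (chr9:123962124-123968692, minus strand) and Ccr2 (chr9:124101950-124113557, plus strand) are in the same cluster of chemokine receptor genes. Ccrl2 (chr9:111054486-111057519) and Cx3cr1 (chr9:119901616-120069879) lie apart from it, both on the minus strand. Fpr1 (chr17:17876471-17883940, minus strand) and Fpr2 (chr17:17887824-17893952, plus strand) are neighbors that point away from each other with 3883 bases between them. Cxcr4 is at chr1:128588199-128592293, C3ar1 at chr6:122847138-122856161 and C5ar1 at chr7:16246743-16259540, each on the minus strand. The 250 bases before the annotated start are shown for Ccrl2, C3ar1 and C5ar1, because these 3 rose with LPS in both genotypes, and for Fpr1 and Fpr2, because this pair was higher in ACAT1 KO than in WT cells after LPS. The sequences are RefSeq's for GRCm38.p6, 5′ to 3′ on the strand of the gene, and capitals mark matches, on either strand, to 4 motif forms: NF-kB (GGG, 5 bases of any kind, CC), interferon response (GAAA, 2 bases of any kind, GAAA), AP-1 (TGANTCA) and PU.1 (GAGGAA).
Ccrl2 promoter, chr9:111057519-111057768, minus strand: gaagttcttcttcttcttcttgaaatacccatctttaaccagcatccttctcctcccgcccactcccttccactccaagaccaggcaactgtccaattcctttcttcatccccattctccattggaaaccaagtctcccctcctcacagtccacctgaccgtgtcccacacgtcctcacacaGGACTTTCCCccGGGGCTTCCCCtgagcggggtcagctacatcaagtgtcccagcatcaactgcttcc
C3ar1 promoter, chr6:122856158-122856407, minus strand: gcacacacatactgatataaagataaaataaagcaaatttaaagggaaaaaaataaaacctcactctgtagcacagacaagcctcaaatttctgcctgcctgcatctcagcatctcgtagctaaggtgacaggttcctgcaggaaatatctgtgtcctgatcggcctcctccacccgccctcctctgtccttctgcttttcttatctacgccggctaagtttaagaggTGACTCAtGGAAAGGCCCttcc
C5ar1 promoter, chr7:16259339-16259588, minus strand: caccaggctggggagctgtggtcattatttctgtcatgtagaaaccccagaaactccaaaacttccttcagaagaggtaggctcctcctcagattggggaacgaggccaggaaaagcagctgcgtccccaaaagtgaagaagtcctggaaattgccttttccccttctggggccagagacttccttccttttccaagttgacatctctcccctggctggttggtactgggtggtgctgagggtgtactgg
Fpr1 promoter, chr17:17883940-17884189, minus strand: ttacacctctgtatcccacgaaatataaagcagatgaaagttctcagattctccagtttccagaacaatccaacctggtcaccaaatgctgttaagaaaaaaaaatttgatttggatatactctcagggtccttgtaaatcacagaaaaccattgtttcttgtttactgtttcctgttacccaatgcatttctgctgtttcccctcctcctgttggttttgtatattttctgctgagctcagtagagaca
Fpr2 promoter, chr17:17887574-17887823, plus strand: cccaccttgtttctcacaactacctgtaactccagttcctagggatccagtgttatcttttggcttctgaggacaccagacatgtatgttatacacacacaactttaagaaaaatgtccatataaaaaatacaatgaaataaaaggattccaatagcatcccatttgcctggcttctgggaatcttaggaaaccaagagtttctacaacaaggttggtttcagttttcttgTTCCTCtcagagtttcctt

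The Ccrl2 window held matches to the NF-kB form in the stretches from -68 to -59 and from -56 to -46 relative to the start, of which the second counts on both strands in 2 overlapping positions. Of the 2 other annotated windows of Ccrl2, neither held any of the 4 forms. C3ar1 had an AP-1 match from -22 to -16 followed by an NF-kB match from -14 to -5, Fpr2 had a PU.1 match from -19 to -14, and the windows of C5ar1 and Fpr1 held none of the 4 forms. The C5ar1 window precedes a RefSeq start that lies inside the gene span given above. Most of that window is therefore within the span and not upstream of it. Counted per gene over all their windows, 4 of the 9 receptors had the NF-kB form, 1 the AP-1 form, 2 the PU.1 form and 0 the interferon response form. Counted in the same way, the forms occur in 48.7%, 7.82%, 25.9% and 3.46% of 27025 genes with annotated windows of this length, in the order NF-kB, AP-1, PU.1 and interferon response, and a match describes letters only.

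With LPS the complement receptors and Ccrl2 rose and the chemokine receptors Ccr1, Ccr2 and Cx3cr1 fell in both genotypes. The call of Cx3cr1 in WT was lost in 5 of 18 alternative runs. In WT cells 3 of 9 rose and 4 fell, where 29.3% of 16535 genes tested were called higher and 28% lower. In ACAT1 KO cells 4 rose and 3 fell, with 29.5% called higher and 31.2% called lower of the same genes. For so few receptors these counts are near the shares over all genes and do not set the receptors apart. The quasi-likelihood test of edgeR was used, with p-values adjusted over all genes by Benjamini-Hochberg and called under 0.05, and both contrasts come from 1 fit of the 12 libraries.

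**Figure D1:**
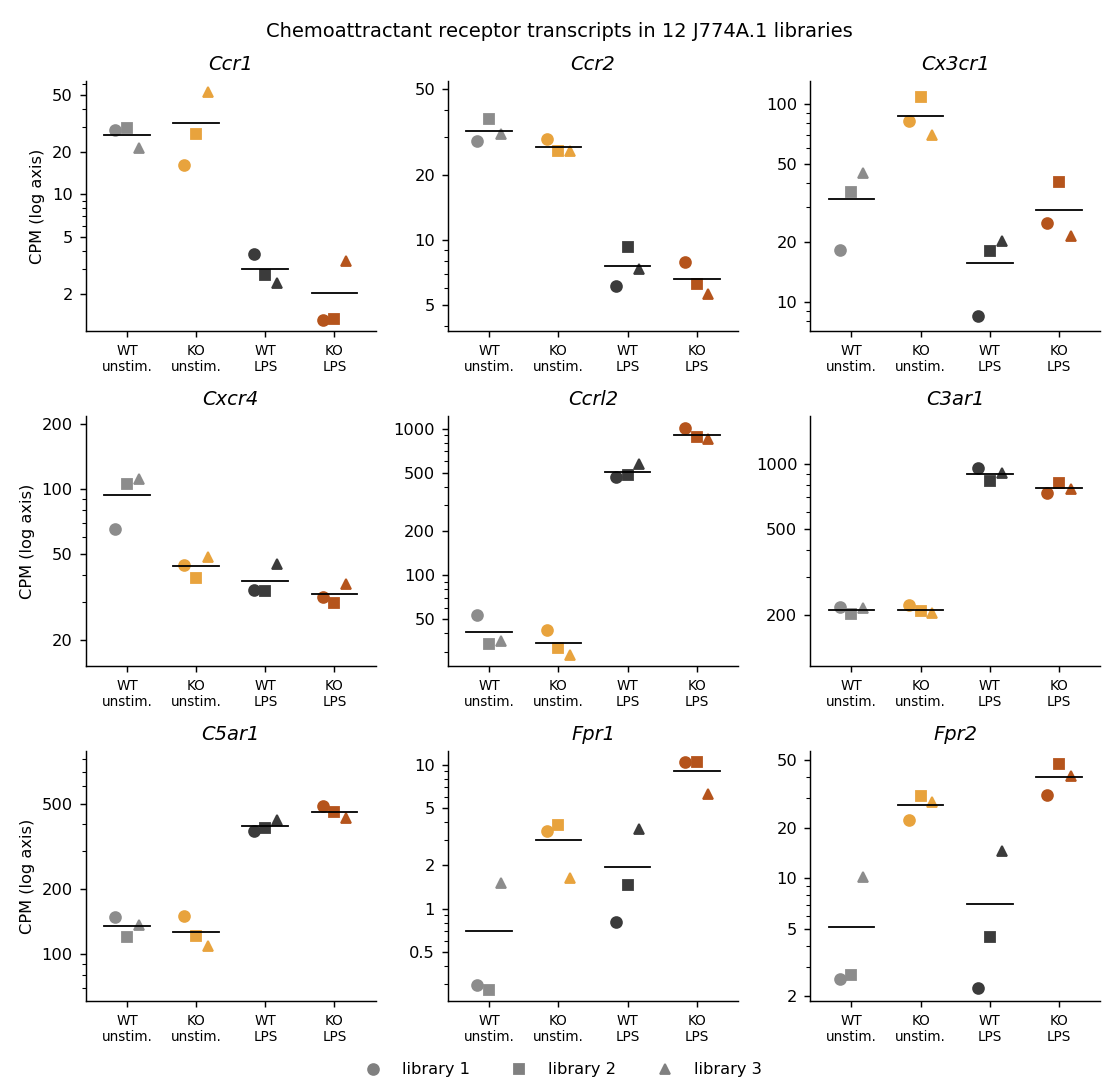
CPM of each receptor in the 12 libraries (log axis, a panel per gene), by group, with circles, squares and triangles for libraries 1, 2 and 3 and a line at the mean of each group. Ccrl2, C3ar1 and C5ar1 sit higher after LPS, Ccr1 and Ccr2 sit lower, and in WT cells library 3 stands above the other two for Fpr1 and Fpr2 in both states.

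Ccrl2 encodes an atypical receptor that binds chemerin without G protein signaling. It was counted at 53.6, 33.7 and 35.3 CPM in unstimulated WT cells and at 467, 480 and 570 CPM after LPS. In ACAT1 KO cells the values were 42.0, 31.8 and 28.7 CPM before and 1020, 875 and 846 CPM after LPS. The LPS libraries lay above all unstimulated ones in both genotypes, and every ACAT1 KO library after LPS lay above every WT library. Ccrl2 had the largest LPS change of the 9 receptors, a log2 fold change of 3.63 in WT (SE 0.200, adjusted p = 2.90e-08) and 4.74 in ACAT1 KO cells (SE 0.211, adjusted p = 4.31e-09). After LPS it was 0.87 higher in ACAT1 KO cells on the log2 scale (SE 0.101, adjusted p = 0.00315), whereas without treatment the difference was -0.25 (95% interval -0.76 to 0.26, adjusted p = 0.585). That unstimulated difference was -0.42 within the library set that stood apart and -0.03 outside it. The difference between the 2 LPS changes was 1.11 (SE 0.257, 95% interval 0.55 to 1.67), which did not pass over all genes with edgeR (adjusted p = 0.118) and passed with DESeq2 (adjusted p = 0.000793).

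Directly downstream of Ccrl2 on the same strand lies Gm43814 (chr9:111052781-111053193), an unclassified transcript with 1292 bases between them. It rose with LPS by a log2 fold change of 3.70 in WT and 5.80 in ACAT1 KO cells, and after LPS it was 0.94 higher in ACAT1 KO cells (SE 0.210, adjusted p = 0.0240). Whether its reads belong to a transcript of Ccrl2 was not tested. The next listed gene on the other side, Lrrfip2, was also higher in ACAT1 KO cells after LPS, by 0.35 on the log2 scale (SE 0.0555, adjusted p = 0.00767).

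C3ar1 and C5ar1 encode the receptors of the complement fragments C3a and C5a. C3ar1 was counted at 218, 201 and 216 CPM in unstimulated WT and at 223, 209 and 204 CPM in unstimulated ACAT1 KO cells. After LPS it reached 962, 830 and 912 CPM in WT and 735, 819 and 763 CPM in ACAT1 KO cells. The unstimulated groups overlapped and were the tightest of all 9 genes, with a 1.08-fold range between the 3 WT libraries, and after LPS all 3 WT libraries exceeded all 3 ACAT1 KO libraries. C3ar1 rose by 2.09 in WT (SE 0.0739) and 1.87 in ACAT1 KO cells (SE 0.0733) on the log2 scale, adjusted p = 1.03e-09 and 1.75e-09. The gap between genotypes after LPS was -0.20 (SE 0.0751), which did not pass (adjusted p = 0.109).

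C5ar1 was counted at 149, 121 and 137 CPM in unstimulated WT and 151, 122 and 110 CPM in unstimulated ACAT1 KO cells. LPS-treated cells had 372, 387 and 420 CPM in WT and 486, 455 and 427 CPM in ACAT1 KO. Its groups after LPS also did not overlap, but in the other order to C3ar1, with ACAT1 KO above WT. C5ar1 rose by 1.54 in WT (SE 0.115, adjusted p = 3.50e-07) and 1.84 in ACAT1 KO cells (SE 0.116, adjusted p = 7.35e-08). The genotype difference after LPS was 0.23 on the log2 scale (SE 0.0703, adjusted p = 0.0603). That value passed with DESeq2 (adjusted p = 0.0247), with upper-quartile normalization (0.0430) and without WT LPS library 3 (0.0410).

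Ccr1, a receptor of CCL3, CCL5 and related chemokines, was counted at 28.3, 29.3 and 21.3 CPM in unstimulated WT and at 16.2, 26.7 and 52.5 CPM in unstimulated ACAT1 KO cells. After LPS it was at 3.80, 2.71 and 2.37 CPM in WT and at 1.30, 1.33 and 3.41 CPM in ACAT1 KO cells. All LPS values lay below all unstimulated values, and library 3 was the highest ACAT1 KO library in both states. Ccr1 fell by 3.16 on the log2 scale in WT (SE 0.455, adjusted p = 8.22e-05) and fell by 3.97 in ACAT1 KO cells (SE 0.474, adjusted p = 1.58e-05), the largest falls of the 9 receptors. The genotypes differed by 0.28 without treatment (adjusted p = 0.757) and by -0.52 after LPS (adjusted p = 0.388). Without treatment the difference was -0.11 within the library set that stood apart and 0.45 outside it. Without ACAT1 KO library 3 the differences were -0.28 without treatment (adjusted p = 0.675) and -1.14 after LPS (adjusted p = 0.0344). The sign without treatment and the call after LPS thus changed without that library. Without its LPS library alone, Ccr1 fell by 4.59 with LPS in ACAT1 KO cells (adjusted p = 1.55e-05).

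Ccr2, the receptor of CCL2 that is known for recruiting monocytes, was counted at 28.9, 36.6 and 31.2 CPM in unstimulated WT and at 29.3, 25.9 and 26.1 CPM in unstimulated ACAT1 KO cells. With LPS these became 6.17, 9.28 and 7.36 CPM in WT and 7.99, 6.28 and 5.68 CPM in ACAT1 KO cells. The genotypes overlapped in both states, and the states did not overlap in either genotype. Ccr2 fell by 2.08 in WT (SE 0.160, adjusted p = 4.23e-07) and by 2.03 in ACAT1 KO cells (SE 0.161, adjusted p = 4.51e-07) on the log2 scale, and the difference of these changes was 0.05 (95% interval -0.43 to 0.53).

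Cx3cr1, the fractalkine receptor, was counted at 18.3, 36.0 and 44.9 CPM in unstimulated WT and at 82.3, 109 and 69.9 CPM in unstimulated ACAT1 KO cells. After LPS the values were 8.49, 18.1 and 20.3 CPM in WT and 25.1, 40.6 and 21.6 CPM in ACAT1 KO cells. Every ACAT1 KO library lay above every WT library in each state, while in WT cells the states overlapped, with WT 1 the lowest library in both. Cx3cr1 fell by 1.08 in WT (SE 0.374, adjusted p = 0.0270) and by 1.58 in ACAT1 KO cells (SE 0.375, adjusted p = 0.00307) on the log2 scale. The call in WT did not hold without WT LPS library 1 (adjusted p = 0.0900), without unstimulated WT library 2 (0.0650) or 3 (0.114), or with robust dispersion (0.0607). The genotype difference was 1.41 without treatment (SE 0.328, adjusted p = 0.0847) and 0.91 after LPS (SE 0.331, adjusted p = 0.103), and passed in neither state with edgeR in each state's libraries. Without treatment it passed with DESeq2 (adjusted p = 0.00551) and with all 12 libraries in 1 fit (0.0424), and it was 2.09 within the library set that stood apart and 0.76 among the other 3 libraries. Cx3cr1 shares 78 exon bases with Gm33858 on the other strand, and whether reads were assigned by strand is not stated for these counts.

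Cxcr4, the receptor of CXCL12, was counted at 65.6, 106 and 112 CPM in unstimulated WT and at 44.5, 38.7 and 48.7 CPM in unstimulated ACAT1 KO cells. After LPS it was at 34.0, 33.8 and 45.1 CPM in WT and at 31.8, 29.8 and 36.5 CPM in ACAT1 KO cells. Unstimulated WT cells thus stood above the 3 other groups, and the genotypes overlapped after LPS. Cxcr4 fell by 1.33 in WT cells on the log2 scale (SE 0.186, adjusted p = 6.65e-05), and in ACAT1 KO cells the change was -0.43 (SE 0.184, adjusted p = 0.0625). The change in ACAT1 KO cells passed with only the libraries of that genotype in the fit (adjusted p = 0.0077), with upper-quartile normalization (0.0169), with a term for the library set (0.0181), with DESeq2 (0.0359) and without unstimulated ACAT1 KO library 2 (0.0472). The difference between the 2 LPS changes was 0.90 (SE 0.260), which did not pass with edgeR (adjusted p = 0.227) and passed with DESeq2 (adjusted p = 0.0239). Without treatment the genotype difference was -1.10 (SE 0.202, 95% interval -1.58 to -0.62), just above the threshold at an adjusted p of 0.0524. It was -1.11 within the library set that stood apart and -1.26 among the other 3 libraries, and it passed with a term for that set (adjusted p = 0.0194), with DESeq2 (3.78e-07), with all 12 libraries in 1 fit (0.00589), with at least 10 counts in every library (0.0353), with upper-quartile normalization (0.0494) and without unstimulated WT library 1 (0.0428).

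Fpr1 and Fpr2 encode the formyl peptide receptors, and Fpr2 also binds annexin A1 and serum amyloid A. Fpr1 was the lowest of the 9 genes in unstimulated WT cells, at 0.297, 0.275 and 1.51 CPM, and was at 3.45, 3.84 and 1.64 CPM in unstimulated ACAT1 KO cells. After LPS it was at 0.809, 1.46 and 3.58 CPM in WT and at 10.4, 10.4 and 6.29 CPM in ACAT1 KO cells. The genotypes did not overlap in either state, yet without treatment WT library 3 stood close to the lowest ACAT1 KO library, which was also numbered 3. After LPS Fpr1 was higher in ACAT1 KO cells by 2.18 on the log2 scale (SE 0.462, adjusted p = 0.0207). Without treatment the difference was 2.09 (SE 0.724, adjusted p = 0.184), 3.66 within the library set that stood apart and 0.65 among the other 3 libraries. Fpr1 rose with LPS in ACAT1 KO cells by 1.60 (SE 0.641, adjusted p = 0.0476), a call lost under 5 of the 6 single-library omissions, with DESeq2 (adjusted p = 0.0544), with robust dispersion (0.0883), with upper-quartile normalization (0.0681) and with a term for the library set (0.0902). In WT the change was 1.44 (95% interval -0.01 to 2.89, adjusted p = 0.0840), and it depended on single libraries. It was 2.78 without unstimulated WT library 3 (adjusted p = 0.00408), 1.80 without WT LPS library 1 (0.0420), 1.99 without WT library 3 in both states (0.00676) and 0.66 without WT LPS library 3 (0.435). Where unstimulated WT library 3 was left out, the remaining unstimulated WT libraries were both of the library set.

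Fpr2 was counted at 2.52, 2.67 and 10.2 CPM in unstimulated WT and at 22.3, 30.9 and 28.4 CPM in unstimulated ACAT1 KO cells. With LPS the values were 2.25, 4.48 and 14.4 CPM in WT and 31.2, 47.6 and 40.7 CPM in ACAT1 KO cells. Again WT library 3 was the highest of its group in both states and no WT library reached an ACAT1 KO library. After LPS Fpr2 was higher in ACAT1 KO cells by 2.49 on the log2 scale (SE 0.567, adjusted p = 0.0255), the largest genotype difference of the 9 receptors. Without treatment the difference was 2.40 (SE 0.554, adjusted p = 0.0828), 3.56 within the library set that stood apart and 1.30 among the other 3 libraries. That difference passed with DESeq2 (adjusted p = 0.00536), with a term for the library set (0.0306), with all 12 libraries in 1 fit (0.0429) and with limma-voom (0.0493). With LPS Fpr2 changed by 0.44 in WT (95% interval -0.91 to 1.80) and by 0.55 in ACAT1 KO cells (95% interval -0.75 to 1.85), and neither passed, though the change in ACAT1 KO cells did with only the libraries of that genotype in the fit (adjusted p = 0.0271). Of its 100-base stretches, 12.3% also occur in the pseudogene Gm5966, and it shares 48 exon bases with Fpr3, which was not analysed here.

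Of the 3 members called between genotypes after LPS, Ccrl2 kept its call in every alternative run, and the calls of Fpr1 and Fpr2 were lost when single libraries were left out. Fpr1 lost its call without ACAT1 KO LPS library 1 (adjusted p = 0.0630) or 2 (0.0681) or WT LPS library 2 (0.0703), with differences of 2.08, 2.08 and 2.01. Fpr2 lost its call without any of the 3 ACAT1 KO LPS libraries (0.0559, 0.0793 and 0.0670) or WT LPS library 2 (0.0829), with differences of 2.24 to 2.64, and with robust dispersion (0.0680). Without WT library 3 the unstimulated differences were 3.39 for Fpr1 (adjusted p = 0.0298) and 3.40 for Fpr2 (adjusted p = 0.00696), and both passed. The unstimulated WT libraries left, WT 1 and WT 2, are both of the library set, whereas only ACAT1 KO 2 is of it. Genotype and library set are thus partly confounded in that fit. Within the set the differences were 3.66 and 3.56, and outside it 0.65 and 1.30. Without WT library 3 the differences after LPS were 3.01 for Fpr1 (adjusted p = 0.00478) and 3.59 for Fpr2 (adjusted p = 0.00271).

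**Figure D2:**
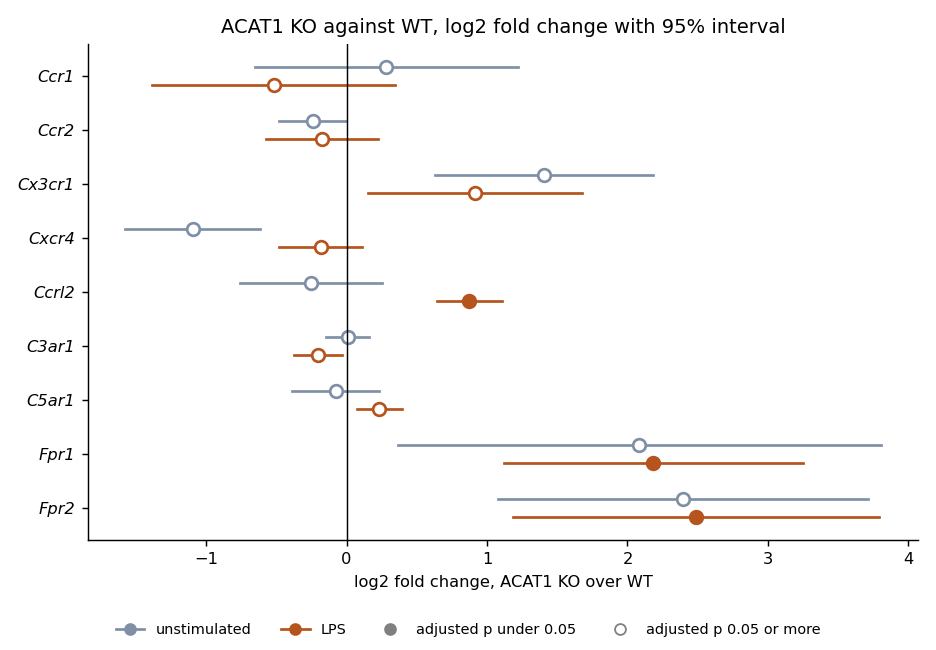
Log2 fold change of ACAT1 KO over WT for each receptor with its 95% interval, without treatment (grey-blue) and after LPS (brown), with filled points where the adjusted p was under 0.05. Filled points are Ccrl2, Fpr1 and Fpr2 after LPS, and Cxcr4 has the lowest value, -1.10 without treatment.

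Between genotypes, then, 0 of 9 receptors passed without treatment, where 0.742% of 16440 genes tested were called higher and 1.17% lower. With unadjusted p under 0.05 there were 5 (Ccr2, Cxcr4, Cx3cr1, Fpr1 and Fpr2). No share over all genes is given at this unadjusted threshold, so such counts, here and below, do not set the genes apart. DESeq2 called 3 of the receptors, with 1721 of 16440 genes tested called, and limma-voom 1, with 1.75%. After LPS 3 of 9 were called higher and 0 lower, where 5.93% of 16483 genes were called higher and 9.12% lower, and 6 had an unadjusted p under 0.05. The median log2 fold change of the 9 was 0.01 without treatment and 0.23 after LPS, against 0.00 in both states over all genes tested. For the difference of the LPS changes, 0 of 9 passed with edgeR, where 0.0484% of 16535 genes were called higher and 0.139% lower. For this contrast 3 had an unadjusted p under 0.05 (Ccrl2, Cxcr4 and C3ar1). DESeq2 called 2 of the receptors, with 334 of 16535 genes tested called, and limma-voom 0, with 0.0665%.

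**Figure D3:**
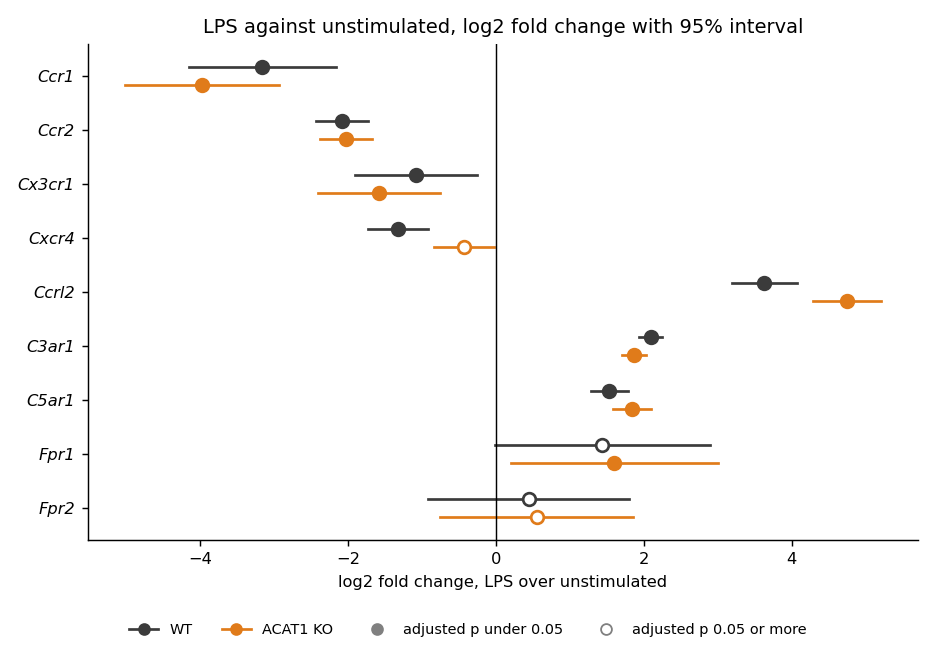
Log2 fold change of LPS over unstimulated for each receptor with its 95% interval, in WT (black) and ACAT1 KO (orange) cells, with filled points where the adjusted p was under 0.05. Ccr1, Ccr2 and Cx3cr1 lie below 0 and Ccrl2, C3ar1 and C5ar1 above it in both genotypes, and the largest value is that of Ccrl2 in ACAT1 KO cells, 4.74.

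Levels of different genes were compared per kilobase of exon. In unstimulated WT cells C5ar1 (52.8 CPM per kb), Cxcr4 (52.3) and C3ar1 (49.2) were highest and their libraries overlapped, followed by Ccrl2 (15.7), which overlapped none of its neighbors in the order. Ccr1 (9.29), Cx3cr1 (7.34), Ccr2 (4.77) and Fpr2 (3.96) came next, each overlapping the next, and Fpr1 (0.525) was below all of them. In unstimulated ACAT1 KO cells C5ar1 (49.7) and C3ar1 (49.2) led, and Cxcr4 (24.3), Fpr2 (20.98), Cx3cr1 (19.4), Ccrl2 (13.1) and Ccr1 (11.2) followed, each overlapping the next, above Ccr2 (4.01) and Fpr1 (2.25).

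After LPS the order changed in both genotypes. In WT cells C3ar1 (209 CPM per kb) and Ccrl2 (195) overlapped at the top, C5ar1 (153) and Cxcr4 (20.8) stood apart from both and from each other, and the other 5 ranged from 1.04 for Ccr1 to 5.45 for Fpr2, each overlapping the next in the order. In ACAT1 KO cells Ccrl2 (352) led without overlap, above C3ar1 (179) and C5ar1 (177), which overlapped. Fpr2 (30.7) came next and lay above Cxcr4 (18.1) without overlap, Cx3cr1 (6.46) and Fpr1 (6.81) overlapped, and Ccr2 (0.983) and Ccr1 (0.711) were lowest and overlapped. Ccrl2 lay at the 81.6th percentile of genes in unstimulated WT cells and at the 99.2nd percentile in ACAT1 KO cells after LPS.

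**Figure D4:**
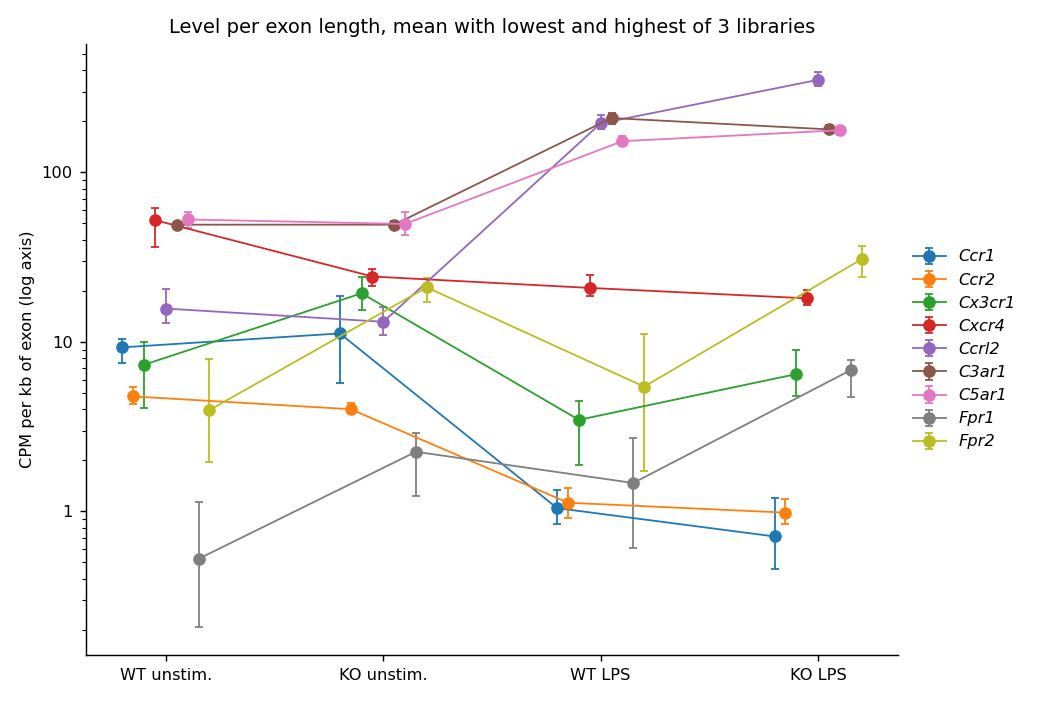
Mean CPM per kb of exon of each receptor in the 4 groups (log axis), with bars from the lowest to the highest of the 3 libraries and lines that join the groups of a gene. Ccrl2 climbs from the middle of the order to the top, Ccr1 and Ccr2 drop to the bottom after LPS, and Fpr2 lies higher in both ACAT1 KO groups.

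The receptors also differed in how far lines of a genotype lay apart. Fpr2 spanned a 6.37-fold range between WT libraries after LPS, a wider range than 99.9% of genes, and Fpr1 spanned 4.34-fold (99.6%). In unstimulated ACAT1 KO cells Ccr1 spanned 3.25-fold (96.6%), and after LPS 2.59-fold (98.4%). C3ar1 was at the other end, with ranges of 1.08-fold to 1.16-fold in the 4 groups. The library with the highest value carried the same number before and after LPS in 13 of the 18 pairs of receptor and genotype, and the lowest did in 12. These pairs come from the same libraries. No share over all genes is given, so the counts do not set the receptors apart. The labels do not say that a number marks a line.

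The genes whose log2 CPM followed each receptor most closely over the 12 libraries had a Pearson r from 0.997 to 0.999 for C3ar1 (Gna13, Stk40 and Tnip1), of 0.997 for Ccrl2 (Sav1, Cep85l and Arl5b) and of 0.996 to 0.998 for C5ar1 (Selenot, Sav1 and Ccrl2). For Ccr1 these were Sash3, 5031425F14Rik and Atoh8 (0.985 to 0.992) and for Ccr2 Sall2, Msi1 and Slc25a15 (0.991 to 0.992). Such values are common for genes that LPS moves, since the libraries share the same 2 states, and 1698 to 2876 genes exceeded 0.9 for each of these 5. For the remaining receptors fewer genes did. The closest to Cx3cr1 included Ccdc85c (0.965) and Rell1 (0.959), and the closest 3 to Cxcr4 were Xkrx, Nuak2 and BC055308 (0.923 to 0.932), to Fpr1 Snap23, Afg3l1 and Ctsc (0.957 to 0.966) and to Fpr2 Bloc1s6, Gja1 and Usp8 (0.958 to 0.972).

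Ccr3, Ccr9 and Xcr1, further receptor genes on chromosome 9, rose with LPS where Ccr1 and Ccr2 fell. Ccr3, the eotaxin receptor between Ccr1 and Ccr2, rose by 2.59 in WT and 3.18 in ACAT1 KO cells on the log2 scale, Ccr9, a receptor of CCL25, by 3.08 and 3.29, and Xcr1, the receptor of XCL1, by 1.25 and 1.32. Ccr3, Ccr9 and Xcr1 were scarce, at 0.243, 0.396 and 0.179 CPM on average over the 12 libraries, against 15.8 CPM for Ccr1 and 18.4 CPM for Ccr2, and in single unstimulated libraries they ranged from 0.0248 to 0.141 CPM. After LPS Ccr9 was higher in ACAT1 KO cells by 0.73 (SE 0.170, adjusted p = 0.0270).

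Among 11 other chemoattractant receptors tested with LPS, 5 rose and 4 fell in WT cells, and 5 rose and 3 fell in ACAT1 KO cells, where 29.3% of all genes tested were called higher and 28% lower in WT and 29.5% and 31.2% in ACAT1 KO cells. Ptafr, the receptor of platelet-activating factor, rose by 2.51 and 3.03, and Gpr183, a receptor of oxysterols, fell by 1.46 and by 2.03 on the log2 scale. Between genotypes 0 of 9 tested passed without treatment with edgeR (2 at an unadjusted p under 0.05), and after LPS 2 of 13 did, among them Ccr9, where 5.93% of all genes were called higher and 9.12% lower.

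Of 12 ligands tested with LPS, 10 rose in WT and 10 in ACAT1 KO cells, where 29.3% and 29.5% of all genes were called higher, with a median log2 fold change of 2.62 and 2.53 against -0.02 and -0.03 over all genes. Ccl5, a ligand of Ccr1, rose by 9.01 and 9.54, and Saa3, an acute-phase serum amyloid A, by 6.81 and 8.21. Ccl4 rose by 4.40 and 4.36 and Ccl3, a ligand of Ccr1, by 3.88 and 3.90. Complement C3, the precursor of the C3ar1 ligand, rose by 1.47 and 1.67. Between genotypes 0 of 13 ligands passed without treatment (4 at an unadjusted p under 0.05). After LPS 6 of 15 were higher in ACAT1 KO cells and 1 was lower, against 5.93% and 9.12% of all genes. Higher were Saa3 by 1.36 (SE 0.285, adjusted p = 0.0199), Ccl3 by 0.73 (SE 0.149, adjusted p = 0.0179), Ccl4 by 0.68 (SE 0.150, adjusted p = 0.0237) and Ccl2, the ligand of Ccr2, by 0.60 (SE 0.129, adjusted p = 0.0225). Anxa1, whose product annexin A1 binds Fpr2, was lower, with a log2 fold change of -0.59 (SE 0.0975, adjusted p = 0.00895).

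Of 25 genes of G protein coupling tested with LPS, 8 rose and 7 fell in WT cells, and 7 rose and 7 fell in ACAT1 KO cells. These shares were near those over all genes, 29.3% higher and 28% lower in WT and 29.5% and 31.2% in ACAT1 KO cells. The regulatory subunits of phosphoinositide 3-kinase gamma, Pik3r5 and Pik3r6, rose by 3.84 and 1.29 in WT cells, while its catalytic subunit Pik3cg fell by 1.38. The kinase gene Jak2 rose by 3.44, and Gna15, a G protein alpha subunit, fell by 1.39. Between genotypes Plcb2, a phospholipase C beta, was higher in ACAT1 KO cells in both states, by 0.56 without treatment (SE 0.0835, adjusted p = 0.0390) and by 0.52 after LPS (SE 0.138, adjusted p = 0.0411). It was the sole gene of 25 called without treatment, where 0.742% of all genes were called higher and 1.17% lower. After LPS Pik3r6 was also higher, by 0.41, and Pik3cg lower, with a log2 fold change of -0.43. In all, 2 of 25 were called higher and 1 lower after LPS, where 5.93% and 9.12% of all genes were.

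Of 16 genes that end receptor signaling, 1 rose and 11 fell with LPS in WT cells, and 2 rose and 12 fell in ACAT1 KO cells, where 28% and 31.2% of all genes were called lower, with medians of -0.50 and -0.61 on the log2 scale. In WT cells the RGS genes Rgs2, Rgs14 and Rgs18, whose products speed up GTP hydrolysis by G proteins, fell by 2.09, by 1.80 and by 1.84. The receptor kinase gene Grk2 fell by 0.61, and Grk3 rose by 1.82. Between genotypes Rgs1, another RGS gene, was lower in ACAT1 KO cells, with log2 fold changes of -1.66 without treatment (SE 0.204, adjusted p = 0.0274) and -0.45 after LPS (SE 0.126, adjusted p = 0.0484). Slc9a3r1, a scaffold of receptor trafficking, was lower too, at -0.63 and -0.78, and Rgs19 was higher, at 0.45 and 0.32. In all, 1 gene of 16 was higher and 2 lower without treatment, and 2 of 17 were higher and 6 lower after LPS, where 0.742% and 1.17% of all genes were called higher and lower without treatment and 5.93% and 9.12% after LPS.

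**Figure D5:**
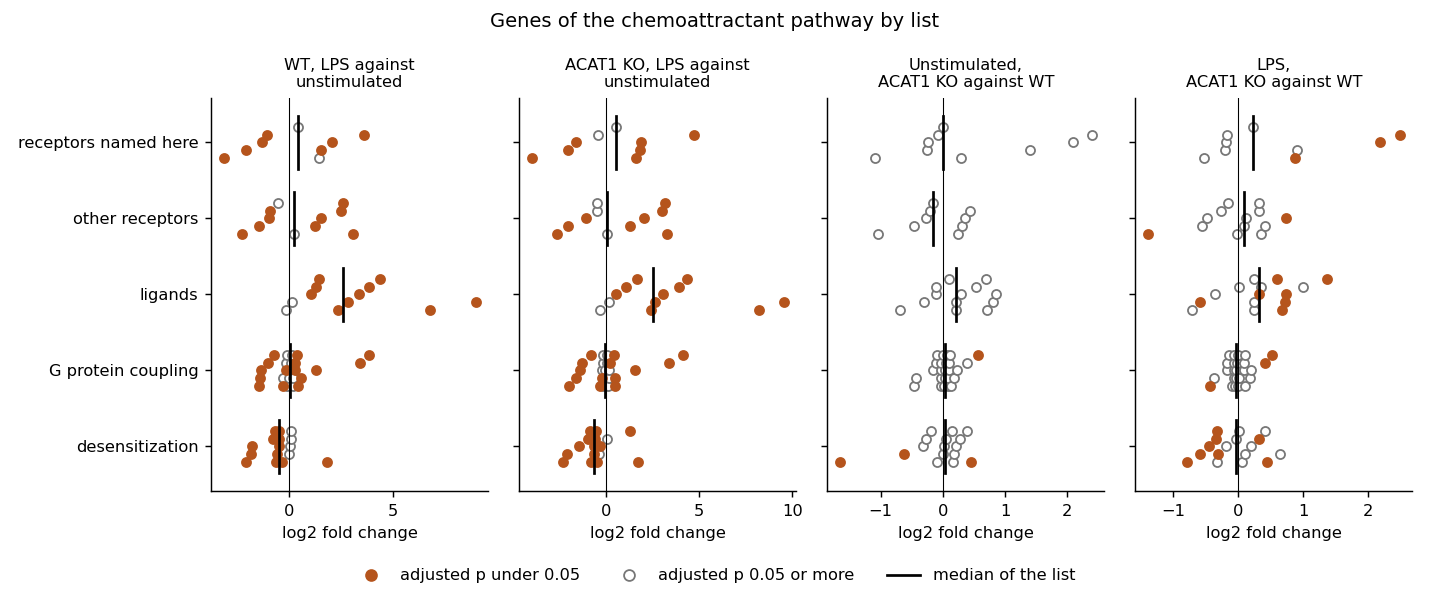
Log2 fold changes of the 9 receptors and of 4 lists of pathway genes in the LPS contrast of each genotype and in the genotype contrast of each state, with a point per gene, brown where the adjusted p was under 0.05, and a black line at the median of each list. Ligands lie mostly to the right after LPS (median 2.62 in WT), genes of desensitization mostly to the left (median -0.50 in WT), and the 9 receptors fall on both sides.

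Some macrophage markers differed between genotypes as well. Fcgr1 was lower in ACAT1 KO cells in both states, with log2 fold changes of -0.69 (adjusted p = 0.0124) and -1.07 (adjusted p = 0.00312), and Adgre1 was lower without treatment, at -0.78 (adjusted p = 0.0368). After LPS Itgam, Spi1 and Cd14 were higher by 0.48, 0.26 and 0.40. Of the neutrophil or mast cell markers, Mmp8 was lower in ACAT1 KO cells in both states, at -1.75 and -1.56. Its mean was at most 2.09 CPM in any group. It was the 1 marker called of 3 tested without treatment and of 5 after LPS, where 1.17% and 9.12% of all genes were called lower. Positive log2 fold changes were found for 2 of the 3 and 3 of the 5. Among these, Ltf (1.23, adjusted p = 0.0638) and Camp (1.00, adjusted p = 0.115) after LPS did not pass. The part of these markers in the receptor differences was not tested.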

How the data were processed

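RNA-seq of 12 libraries, 3 WT and 3 ACAT1 KO in each of 2 states, was grouped by genotype and treatment as labelled, with replicate numbers from the titles. The authors deposited raw whole counts of each gene, with unstimulated and LPS libraries in separate tables. They were made from reads trimmed with Trimmomatic 0.33, aligned to GRCm38 with HISAT2 and quantified with StringTie. The step that gave whole counts, and its strand setting, are not given in the sources used here. The 12 columns of log2 values per library and the authors' own fold changes and p-values were not used. Once 59 and 57 repeated entries were removed, 17544 and 17874 genes remained, 16699 of them in both tables, and every listed gene had at least 4 counts in 5 or more of 6 libraries, so a gene silent in a group may be left out. No pair of libraries of a group agreed within sampling noise (lowest chi-square per degree of freedom 31.7).

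Genes were filtered with filterByExpr, normalized by TMM and tested with the two-sided quasi-likelihood test of edgeR 4.0.16 in R 4.3.3, with Benjamini-Hochberg adjustment over all genes tested. Genotypes were compared within each state's 6 libraries, and LPS changes and their difference in a fit of all 12. P-values measure the spread between libraries of this cell line. Without treatment that spread includes the difference between the library set and the other libraries, since the main fit has no term for it. The fit of all 12 took unstimulated and LPS libraries as independent. An exact permutation test of 3 against 3 cannot go below p = 0.1. Common biological coefficients of variation were 0.285 without treatment, 0.108 after LPS and 0.185 in the joint fit. In simulated counts with 200 genes changed 2-fold (1 on the log2 scale), 144 were recovered without treatment, 149 after LPS and 44 for the interaction. The simulation used the same dispersion for every contrast and held no library set. That dispersion was below the common value of the unstimulated fit and above that of the LPS fit. Recovery may thus be overstated without treatment and understated after LPS. Log2 CPM used a prior count of 2. Coordinates are from GENCODE M21 on GRCm38 and promoter windows from RefSeq on GRCm38.p6, where all 9 symbols matched.

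All receptors were named. Of each pathway list, genes past the adjusted threshold were eligible, at most 5 per contrast by smallest p, and the text gives some of them, with some eligible genes not reported here. Genes within 500 kb of Ccr1, Ccr2 or Ccrl2 were also eligible. The receptors, lists and tests were chosen with earlier results of these data known. Alternatives were DESeq2 1.42.0, limma-voom (limma 3.58.1), other normalizations, filters and dispersion settings, a term for the library set, the replicate number as a block, and omission of each library.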

Additional observations from a re-analysis of the deposited data

How the results depend on the processing

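Ccrl2 was called between genotypes after LPS, and Ccrl2, C3ar1, C5ar1, Ccr1 and Ccr2 with LPS in both genotypes, in every alternative run. The count of receptors called between genotypes without treatment was 0, and became 3 with DESeq2 or with all 12 libraries in 1 fit, 2 with a term for the library set, 1 with limma-voom, with upper-quartile normalization or with at least 10 counts in every library, and 0 to 2 when 1 library was left out. Leaving out WT library 3 in both states, an alternative chosen after the data were seen, gave 2, where 3.18% of all genes were called. The remaining unstimulated WT libraries then both belonged to the library set. After LPS the count was 3, and 1 to 4 when 1 library was left out (1 without ACAT1 KO LPS library 1 or 2 or WT LPS library 2). Of all genes 15.1% were called after LPS, and 5.18% to 13.3% when 1 library was left out. For the interaction the count of receptors was 0, and became 2 with DESeq2, 3 with the replicate block, and 4 with the block and the term for the library set. That pairing of settings was also chosen after the data were seen. Of 16440 genes tested without treatment, edgeR called 314 (1.91%), DESeq2 1721 and limma-voom 287 (1.75%). All 12 libraries in 1 fit called 8.18%, the term for the library set 4.04%, upper-quartile normalization 1.86% and the filter at 10 counts 3.22%. Leaving 1 library out gave 0.0414% to 3.18%. Of 16535 genes tested for the interaction, edgeR called 31 (0.187%), DESeq2 334 and limma-voom 11 (0.0665%). The replicate block called 1.74% there, and the block with the term for the library set 2.76%.

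Unstimulated and LPS libraries of the same number deviated together with a correlation of 0.0913 to 0.307 over 16535 genes. This falls under 0.1 for ACAT1 KO 2, though each library correlated best with its own number, so the number was not taken to pair lines. With the block Ccrl2 (1.10, adjusted p = 0.0442), Cxcr4 (0.88, adjusted p = 0.0346) and Cx3cr1 (-0.53, adjusted p = 0.0364) were called for the interaction. All 9 receptors were called with LPS in each genotype under the block, where 62% of all genes were called in WT and 64.8% in ACAT1 KO cells.

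Values near 0 changed sign. The unstimulated difference of C3ar1 was -0.0021 with the term for the library set and -0.013 with upper-quartile normalization, and ranged from -0.043 to 0.037 when 1 library was left out. That of C5ar1 ranged from -0.23 to 0.019 and that of Ccr1 from -0.28 to 0.58. The interaction ranged from -0.10 to 0.22 for Ccr2, from -1.18 to 0.94 for Fpr1 (-0.39 without WT library 3 in both states) and from -0.92 to 1.19 for Fpr2. The LPS change of Fpr2 in WT ranged from -0.64 to 1.47. Upper-quartile normalization moved the median LPS change of all genes from -0.018 to -0.226 in WT and from -0.026 to -0.175 in ACAT1 KO cells, and turned no receptor's LPS change. Causes were not tested. Of the alternative values of single receptors, 730 kept direction and call, 47 gained a call, 22 lost it and 20 changed sign. Counting error bears most on the unstimulated values of Ccr3, Ccr9 and Xcr1 (0.0248 to 0.141 CPM) and, of the 9 receptors, on Fpr1 in unstimulated WT 1 and WT 2 (0.297 and 0.275 CPM).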
